A study of Homo sapiens with 6 samples.

Results

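TBCA, DSTN, MAGI1 and EMP3 are 4 human genes of the cytoskeleton, of cell junctions and of the cell surface. They were followed across embryonic stem cells and endoderm cells on their way from G1 into S phase. The genes were chosen by their measured S against G1 differences, which go opposite ways in the 2 cell types or are large in 1 of them. Those differences are therefore described here and not tested. All rows of the deposited table that carry the 4 names were taken, which gave 6 regions of 14686, with 2 each for DSTN and MAGI1 and 1 each for TBCA and EMP3. A region is a stretch of the genome in which sequenced 3' ends of polyadenylated RNA gather.

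The study read RNA 3' ends in 6 libraries of H9 cells at passage 51. H9 is a widely used line of human embryonic stem cells (hESCs). The 3 hESC libraries are of undifferentiated cells on Matrigel in medium conditioned by mouse embryonic fibroblasts, and are labelled G1 (0 h), G1/S (2 h) and S (3 h). The 3 endoderm libraries are of H9 cells after 6 days with activin A at 100 ng/ml in a basal medium with rising serum, and are labelled G1 (0 h), G1/S (3 h) and S (6 h). Medium and serum differ along with cell type, and the hours differ between the types. How the phases were reached is not given in the sources used here. Each type and phase has 1 library of 1 line, so no value within a type has a replicate.

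TBCA is a tubulin folding cofactor that takes up beta-tubulin after its release from the cytosolic chaperonin, a step toward the tubulin dimer from which microtubules grow. DSTN (destrin, also called actin-depolymerizing factor) is a relative of cofilin that severs actin filaments and speeds their turnover. MAGI1 is a scaffold with several PDZ domains that sits at tight and adherens junctions and binds catenins and other membrane proteins there. EMP3 is a small membrane protein of the family of PMP22 and the epithelial membrane proteins. Cells rebuild microtubules and actin filaments and loosen junctions as they divide and as an epithelium changes form.

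The reads counted in the deposited regions ranged from 2502792 in the endoderm S library to 6203079 in the hESC S library. Reads outside these regions are not known here. Signal here means reads divided by the size factor of the library, and 1 read is worth between 0.591 (hESC S) and 1.71 (endoderm S) of it. As a check of the cell type labels, 9 of 9 measured endoderm markers rose in endoderm, among them SOX17, FOXA2 and GATA6 (limma, adjusted p under 0.05). Of 9 measured hESC markers 4 fell (SOX2, DNMT3B, UTF1 and LCK) and 5 did not pass, POU5F1 (log2 difference -0.0092), LIN28 (0.41), DPPA4 (0.45), TDGF1 (0.98) and ZFP42 (-0.67). Of 8 measured epithelial markers, KRT8 and KRT19 rose and CDH1 and KRT7 fell. Among all regions, 6.9% rose and 7.6% fell. The phase labels were not checked with markers. Across named regions, the rank correlation of GC content with deviation from the region's mean was 0.42 in hESC G1/S and 0.24 in endoderm G1/S, against -0.39 in endoderm G1 and -0.16 to -0.01 in the others. These are bulk samples, in which fewer cells of a type and less RNA per cell cannot be told apart.

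The position of the regions matters for what was counted. The DSTN regions lie at chr20:17498670-17498864 and chr20:17536439-17536888 on the plus strand, as deposited. The submitters' processing notes name builds hg18 and NCBI36. From the first base of the upstream region to the last of the downstream region they span 38219 bases, which is 95.9% of the length of DSTN in RefSeq (39845 bases). The MAGI1 regions lie at chr3:65999386-65999596 and chr3:65315636-65315881 on the minus strand and span 683961 bases, 99.8% of the RefSeq length of that gene (685393 bases). The upstream region of each gene thus lies at the side where the gene begins, a whole gene length away from the downstream region. The TBCA region, at chr5:77107776-77107981 on the minus strand, lies 225927 bases from the region of the neighbouring gene AP3B1. RefSeq puts the end of AP3B1 224183 bases from the start of TBCA and 309356 bases from its end, so the distance is close to that of the start. The next region on the other side of TBCA, that of WDR41, is 343683 bases away, and 0 regions lie between. The EMP3 region, at chr19:53525340-53525622 on the plus strand, lies 1876 bases from that of TMEM143, against 1803 bases between the ends of these genes in RefSeq and 6804 to the start of EMP3. By these distances, 3 of the 6 regions (TBCA, upstream DSTN and upstream MAGI1) sit near annotated gene starts and 3 near annotated gene ends. Gene annotation of the build of the positions was not used here, and exons are therefore not named.

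Because those 3 regions sit near gene starts, the 250 bases before the annotated start of each gene are shown, from RefSeq on GRCh38.p14 and read 5' to 3' in the direction of the gene. The windows are chr5:77776340-77776589 (minus strand) for TBCA, chr20:17569825-17570074 (plus strand) for DSTN and chr3:66038919-66039168 (minus strand) for MAGI1. Capitals mark the GC box (GGGCGG, on either strand).
TBCA: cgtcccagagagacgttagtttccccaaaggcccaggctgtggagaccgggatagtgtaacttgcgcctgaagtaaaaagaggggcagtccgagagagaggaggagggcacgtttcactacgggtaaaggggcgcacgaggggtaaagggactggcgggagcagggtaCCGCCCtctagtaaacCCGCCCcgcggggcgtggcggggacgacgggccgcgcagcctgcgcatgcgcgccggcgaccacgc
DSTN: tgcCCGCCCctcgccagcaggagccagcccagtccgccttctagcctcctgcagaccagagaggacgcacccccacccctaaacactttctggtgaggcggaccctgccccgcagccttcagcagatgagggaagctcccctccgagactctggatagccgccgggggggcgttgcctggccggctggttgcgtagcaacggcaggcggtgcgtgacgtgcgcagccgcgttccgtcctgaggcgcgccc
MAGI1: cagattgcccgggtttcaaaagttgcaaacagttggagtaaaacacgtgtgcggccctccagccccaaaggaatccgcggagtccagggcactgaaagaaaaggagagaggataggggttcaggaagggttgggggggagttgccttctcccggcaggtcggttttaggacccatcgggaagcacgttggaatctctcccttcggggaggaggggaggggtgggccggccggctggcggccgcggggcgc
These windows are 66.0%, 70.0% and 62.4% G and C, against a median of 58.0% (quartiles 46.4% and 68.0%) over 35116 such windows. They hold 26, 22 and 16 CG pairs, against a median of 11. The TBCA window has 2 GC boxes, the DSTN window 1 and the MAGI1 window 0, and 42.6% of all windows have at least 1. Searched on both strands, the TATA box (TATAAA, in 10.7% of all windows), the CCAAT box (CCAAT, in 32.0%) and the poly(A) signal (AATAAA, in 16.0%) had 0 matches in each of the 3 windows. The windows lie before the annotated starts, outside the annotated transcripts. The lack of a poly(A) signal in them therefore says nothing about how the counted 3' ends arose.

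TBCA had the highest signal of the 6 regions in hESC G1 and a far lower one in hESC S. Its hESC signal was 2749 at G1, 538 at G1/S and 240 at S. Its endoderm signal was 2552 at G1, 2176 at G1/S and 3191 at S. The hESC G1 library stood at the endoderm level, while the hESC G1/S and S libraries stood below every endoderm library. In hESCs S was 11.4-fold lower than G1 (95% counting interval 10.3 to 12.7), and G1/S was already 5.11-fold lower (4.66 to 5.61). In endoderm S was 1.25-fold higher than G1 (1.18 to 1.32) and G1/S 1.17-fold lower (1.10 to 1.25). These intervals speak of counting error alone, because each type and phase has 1 library. PCR copies of a molecule would count as several reads, so the intervals may be too narrow. The TBCA difference is thus large in hESCs and small in endoderm. The endoderm values depend on the scaling. On the log2(signal + 1) scale, S minus G1 was 0.12 with scaling by total reads and 0.11 with quantile normalisation in place of 0.32, and G1/S minus G1 was -0.75 and -0.79 in place of -0.23. TBCA and DSTN have processed pseudogenes, so reads of near-identical copies could be shared with them.

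**Figure D1:**
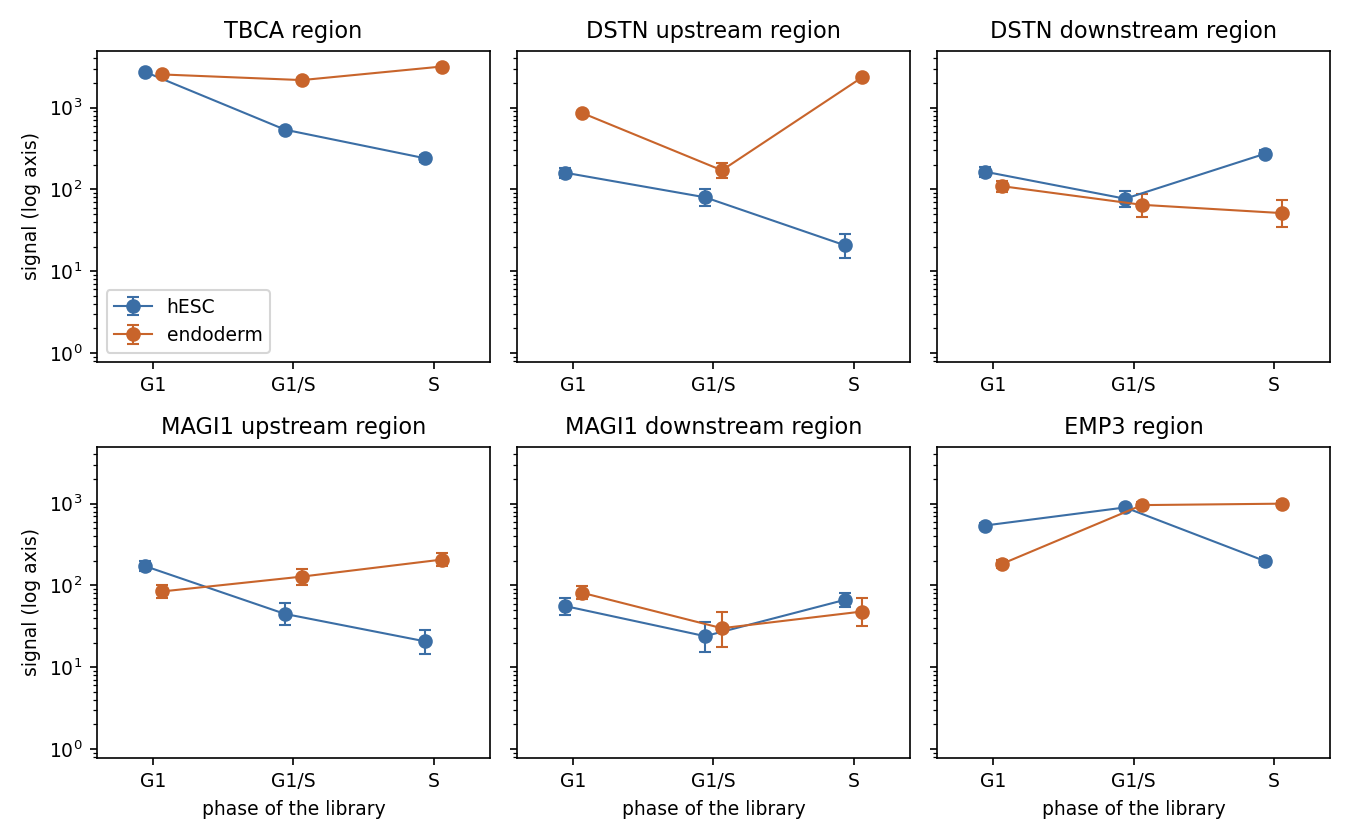
Signal (log axis, the same in all panels) of the 6 regions in the G1, G1/S and S libraries of hESCs (blue) and endoderm (orange), with 95% counting intervals as bars and 1 library per point. TBCA, upstream DSTN and upstream MAGI1 step down from hESC G1 to hESC S, to 240, 20.7 and 20.7, and each stands highest in endoderm S.

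DSTN gave opposite pictures from its 2 regions. The upstream hESC signal was 160 at G1, 80.2 at G1/S and 20.7 at S. The upstream endoderm signal was 866 at G1, 171 at G1/S and 2350 at S. Every endoderm value lies above every hESC value, though endoderm G1/S (171) is only just above hESC G1 (160). S was 7.76-fold lower than G1 in hESCs (95% counting interval 5.41 to 11.4) and 2.71-fold higher in endoderm (2.51 to 2.93). Endoderm G1/S was 5.05-fold lower than endoderm G1 (4.13 to 6.24), so endoderm was lowest at G1/S, while hESCs were lower at each later phase. The downstream DSTN region, near the annotated end of the gene, had hESC values of 165 (G1), 77.0 (G1/S) and 274 (S) and endoderm values of 110, 64.9 and 51.3. There S was 1.66-fold higher than G1 in hESCs (1.41 to 1.96) and 2.14-fold lower in endoderm (1.44 to 3.27), the reverse of the upstream region in both types.

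The share of DSTN reads that fall in the upstream region does not depend on how libraries are scaled. It was 49.3% (exact binomial 95% interval 44.5 to 54.1) in hESC G1, 51.0% (42.7 to 59.2) in G1/S and 7.01% (4.93 to 9.62) in S. In endoderm it was 88.7% (87.0 to 90.3), 72.5% (64.4 to 79.7) and 97.9% (97.0 to 98.6). Between hESC S and endoderm S the gene thus passed from mostly downstream to almost wholly upstream reads. Added together, the regions gave an hESC signal of 325 at G1, 157 at G1/S and 295 at S, where S and G1 are close. In endoderm the sum was 976, 236 and 2401, which follows the upstream region.

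MAGI1 had fewer reads, and its regions also differed from each other. The upstream hESC signal was 172 at G1, 44.8 at G1/S and 20.7 at S, and the endoderm signal was 84.2, 128 and 207, from 35 to 228 reads. The values are lower with each phase in hESCs and higher with each in endoderm, and the types overlap. The endoderm step from G1 to G1/S, 0.60 on the log2(signal + 1) scale, was 0.085 with scaling by total reads. S was 8.34-fold lower than G1 in hESCs (95% counting interval 5.83 to 12.3) and 2.46-fold higher in endoderm (1.90 to 3.19). The downstream region had hESC values of 56.0 (G1), 23.9 (G1/S) and 66.7 (S) and endoderm values of 81.5, 29.9 and 47.9, lowest at G1/S in both types. The last 500 bases of the MAGI1 transcript are 37.8% G and C, at percentile 26.8 of named regions. Over the 2497 named regions with the lowest GC content, the median G1/S minus G1 difference was -0.51 in hESCs and -0.57 in endoderm. The part of GC content in the low G1/S values was not tested. In the downstream region S was 1.19-fold higher than G1 in hESCs, an interval that includes no difference (0.882 to 1.62), and 1.70-fold lower in endoderm (1.12 to 2.67). Of the MAGI1 reads, 75.5% (70.2 to 80.2), 65.2% (52.4 to 76.5) and 23.6% (17.1 to 31.3) were upstream in hESC G1, G1/S and S. In endoderm the shares were 50.8% (44.3 to 57.3), 81.1% (71.7 to 88.4) and 81.2% (74.0 to 87.1).

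**Figure D2:**
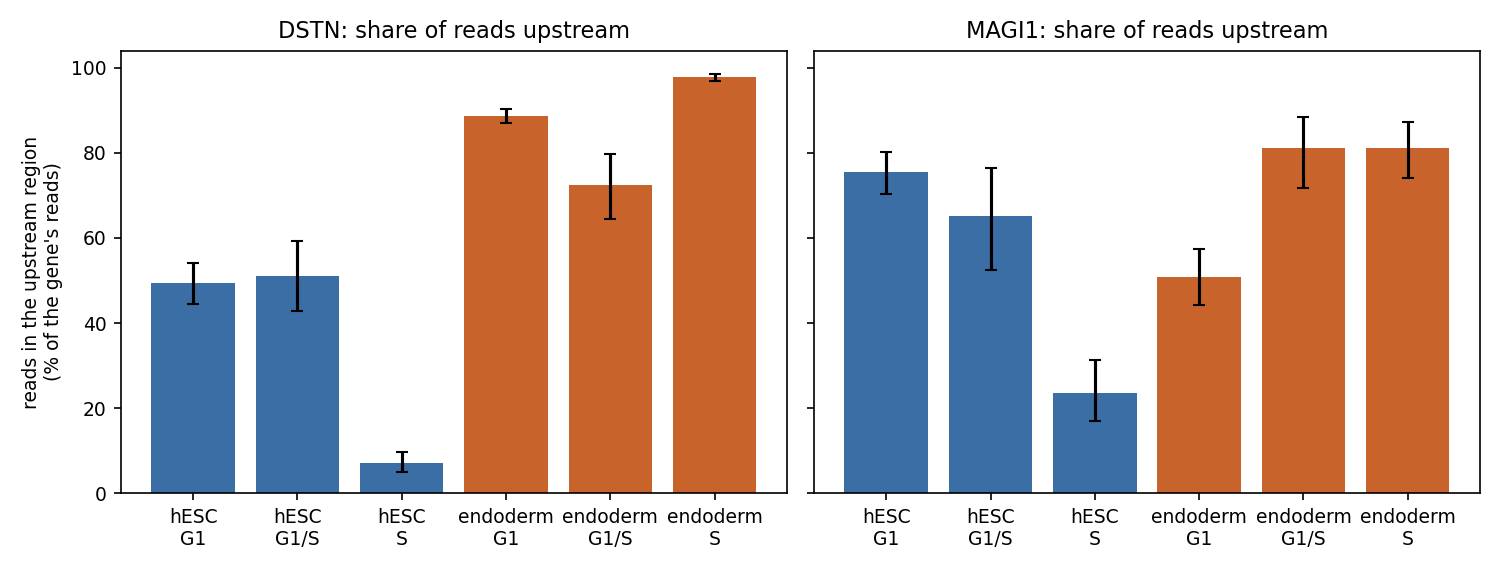
Share of the reads of DSTN and MAGI1 that fall in the upstream region, in percent, in each of the 6 libraries (bars, hESC blue and endoderm orange, with exact binomial 95% intervals). The hESC S bars are the lowest of both genes, at 7.01% and 23.6%, and the endoderm S bars the highest, at 97.9% and 81.2%.

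EMP3 followed another course. Its hESC signal was 540 at G1, 899 at G1/S and 198 at S, and its endoderm signal was 183 at G1, 960 at G1/S and 999.6 at S. It was low in hESC S and endoderm G1 and at similar levels in hESC G1/S and the 2 later endoderm libraries. S was 2.73-fold lower than G1 in hESCs (95% counting interval 2.39 to 3.12) and 5.46-fold higher in endoderm (4.72 to 6.34). G1/S was 1.66-fold higher than G1 in hESCs (1.505 to 1.84) and 5.25-fold higher in endoderm (4.53 to 6.09), and endoderm S stood at 1.04 times endoderm G1/S (0.927 to 1.17). EMP3 thus had its step between G1 and G1/S in endoderm and between G1/S and S in hESCs. The last 500 bases of its transcript are 61.0% G and C, more than in 91.6% of named regions. Over the 2519 named regions with the highest GC content the median S minus G1 difference was -0.26 in hESCs and 0.15 in endoderm, and G1/S minus G1 was 0.32 and 0.61. After subtraction of the trend with GC content, the EMP3 difference was -1.13 in hESCs and 2.26 in endoderm, against -1.44 and 2.44 before. Of 10 measured mesenchymal markers, 5 rose in endoderm (VIM, CDH2, SNAI1, TWIST1 and TAGLN), 2 fell (COL1A1 and THY1), and none was at 0 in any library. Over all regions 6.9% rose and 7.6% fell. The summed signal of the mesenchymal markers in hESCs was 27029 at G1, 42641 at G1/S and 29441 at S. Their endoderm sum was 33032 at G1, 76593 at G1/S and 73028 at S, and most of the signal came from TAGLN. Like EMP3, that sum was lowest at G1 in endoderm. In hESCs the sum was also lowest at G1, whereas EMP3 was lowest at S. The part of GC content and of these markers in the EMP3 result was not tested.

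The differences by which the genes were chosen can be set beside all regions. A region was at least 2-fold lower in S than in G1 on the log2(signal + 1) scale in hESCs in 10.1% of 14657 regions kept, and at least 2-fold higher in endoderm in 10.6%. Both held in 1.69%, and in 3 of the 6 regions described here (upstream DSTN, upstream MAGI1 and EMP3), a count that the choice of genes fixes. The difference between the types in S minus G1 was 4.34 for upstream DSTN, 4.29 for upstream MAGI1, 3.89 for EMP3 and 3.83 for TBCA. It was -1.81 for downstream DSTN and -1.003 for downstream MAGI1, a size that 18.9% and 41.7% of all regions reach. The median S minus G1 difference over all regions kept was 0.01 in hESCs and -0.04 in endoderm.

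**Figure D3:**
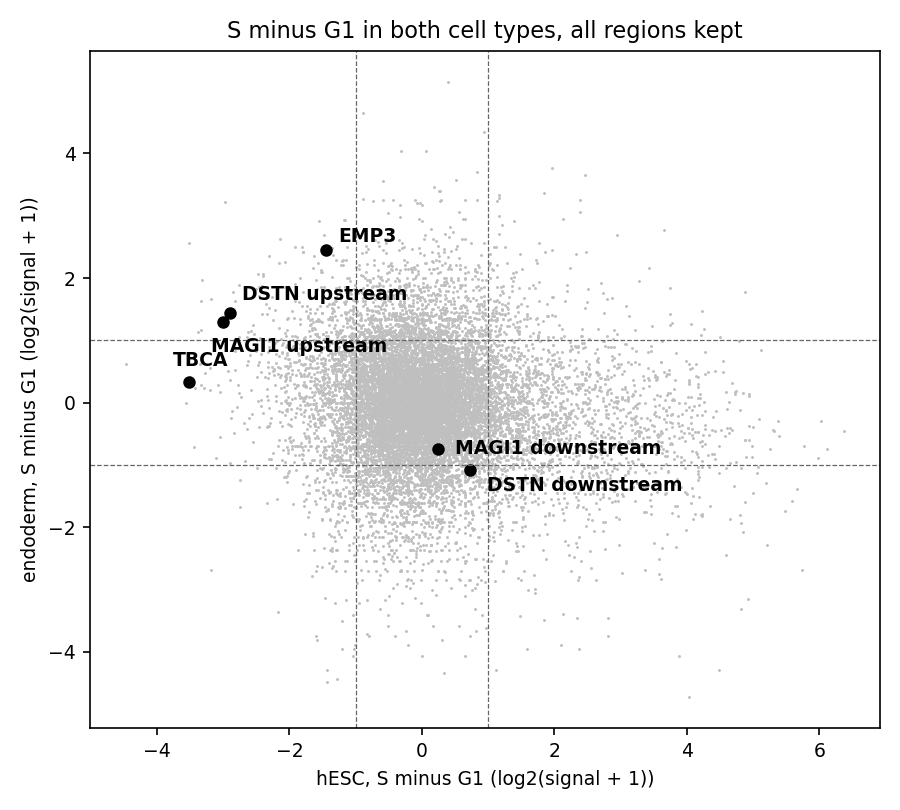
S minus G1 difference on the log2(signal + 1) scale in hESCs (x axis) against endoderm (y axis) for 14657 regions (grey) and the 6 regions described (black), with dashed lines at 2-fold. Upstream DSTN, upstream MAGI1 and EMP3 lie beyond both lines at the upper left, TBCA left of the 2-fold line for hESCs at 0.32 in endoderm, and both downstream regions to the lower right.

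Other genes with a region near their start showed part of the pattern. Of 612 genes with several regions on 1 strand and over 3000 bases long in RefSeq, 51 had regions whose span was within 5% of the RefSeq length, DSTN and MAGI1 among them. In the other 49, the upstream regions had a median S minus G1 difference of -0.58 in hESCs and 0.45 in endoderm. Their downstream regions had medians of -0.25 and -0.33. Of those 49 upstream regions, 20 were at least 2-fold lower in hESC S, 12 at least 2-fold higher in endoderm S and 6 both, against 8, 3 and 1 of the downstream regions. Upstream DSTN (-2.90 and 1.44) and upstream MAGI1 (-3.001 and 1.29) point the same way as these medians and lie further out, and TBCA (-3.51 and 0.32) does so in hESCs. This set was formed after the positions of the 4 genes had been seen, and no test was run on it.

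**Figure D4:**
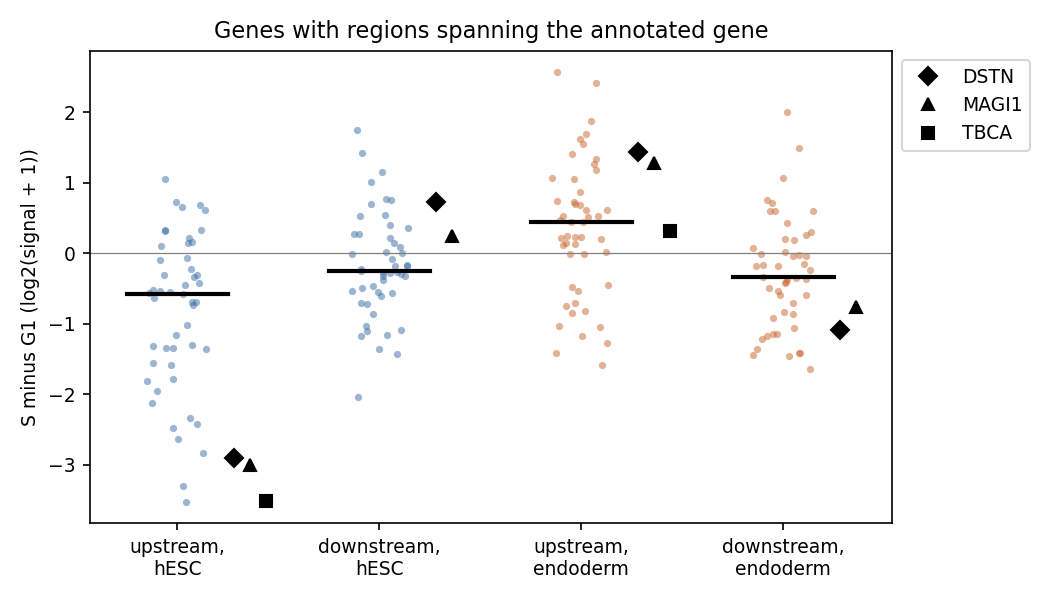
S minus G1 difference on the log2(signal + 1) scale for the upstream and downstream regions of 49 genes whose regions span the annotated gene (points, with black lines at the medians of -0.58, -0.25, 0.45 and -0.33), with DSTN, MAGI1 and TBCA as black symbols. The upstream points reach further down in hESCs and further up in endoderm than the downstream points.

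Correlations among the 3 start-side regions over the 6 libraries largely restate the choice of the genes, which used the G1 and S libraries. Within a library all regions also share depth and scaling. Pearson's r of log2(signal + 1) was 0.95 between upstream MAGI1 and TBCA, 0.84 between upstream DSTN and TBCA and 0.77 between upstream DSTN and upstream MAGI1. Between the 2 regions of a gene it was -0.68 for DSTN and -0.05 for MAGI1. Likeness to the strongest region of each gene was measured by r over the 6 libraries among 5795 named regions with a mean signal of 50 or more. Most like TBCA were KIAA0776 (r = 0.98), FN1 (0.98) and NMT2 (0.97). Most like upstream DSTN were SNRNP27 (0.998), WDR45L (0.99) and THRAP3 (0.99). The SNRNP27 region had hESC values of 36.3 (G1), 25.0 (G1/S) and 8.27 (S) and endoderm values of 152, 36.6 and 301. Most like upstream MAGI1 were N-PAC (0.98), NMT2 (0.97) and CEP164 (0.97). Most like EMP3 were DHX34 (0.99), PPP5C (0.99) and ITGB1BP3 (0.98). The DHX34 region ranged from 277 (endoderm G1) to 541 (endoderm S), a narrower range than that of EMP3. With 6 libraries and this many regions such correlations are a description only.

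The mean difference between endoderm and hESCs was tested with limma over all regions with phase as a term. The test is not independent of the choice of genes. The G1 and S libraries used in the choice also enter the estimate. A phase difference that differs between the types enters the residual and widens the SE. A region that did not pass therefore shows no lack of a difference. Over all regions 6.9% rose in endoderm and 7.6% fell. Of the 6 regions, 1 rose, upstream DSTN, and 0 fell. Upstream DSTN rose from 87.1 ± 70.1 to 1129 ± 1113 (mean ± SD, n = 3 libraries, 1 of each phase). On the log2(signal + 1) scale this is 3.42 ± 0.92 (SE), with a limma adjusted p = 0.0486, higher in endoderm in 3 of 3 phases. The call is marginal: it was lost without either G1/S library (limma adjusted p = 0.0663 and 0.0543, at 4.59), with edgeR (edgeR adjusted p = 0.0930) and with DESeq2 (DESeq2 adjusted p = 0.0676). Without either S library the difference was 1.76. Downstream DSTN had a log2 difference of -1.07 ± 0.45 (limma adjusted p = 0.142), opposite in sign to the upstream region.

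The TBCA means were 1176 ± 1370 (hESC) and 2640 ± 513 (endoderm), 1.88 ± 0.61 apart on the log2 scale, which did not pass (limma adjusted p = 0.0779). It passed without either G1 library, at 2.87 (limma adjusted p = 8.64e-05 without hESC G1 and 0.000133 without endoderm G1), and with DESeq2 (DESeq2 adjusted p = 0.00503). Without either S library it was 0.95. Upstream MAGI1 stood at 79.3 ± 81.6 and 140 ± 62.3 (1.24 ± 0.71, limma adjusted p = 0.252). It too passed without either G1 library, at 2.38 (limma adjusted p = 0.00390 and 0.00379), and without either S library it was 0.24. Downstream MAGI1 (0.12 ± 0.37, limma adjusted p = 0.836) and EMP3 (546 ± 350 and 714 ± 460, 0.29 ± 0.63, limma adjusted p = 0.769) did not pass, and EMP3 was at -0.73 without either S library. Leaving out either library of a phase gives the same estimate, as that phase then has 1 type only. Without a G1 library the estimates rest on the G1/S and S libraries. The genes were chosen on S against G1, so the passes of TBCA and upstream MAGI1 there in part restate that choice. Whether the phase difference itself differs between the types could not be tested, as each type and phase has 1 library.

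The partners of these genes were read from lists of related genes. Over all regions 6.9% rose and 7.6% fell, and no list was tested as a set. Of 18 measured genes of tubulin folding and the chaperonin, TBCA included, 0 rose and 0 fell in endoderm (limma, adjusted p under 0.05). The median log2 difference was 0.03, against 0.02 over all regions. Without either G1 library 1 passed, TBCA itself, which in part restates its choice. The related cofactors TBCB, TBCC and TBCD had differences of 0.25, 0.28 and -0.45, and none passed. TBCB, which handles alpha-tubulin, had hESC values of 477 (G1), 765 (G1/S) and 1089 (S), higher with each phase where TBCA was lower, and endoderm values of 844, 918 and 871. The TBCA region sits near the annotated gene start, and the place of the TBCB region in its gene was not examined, so the measures may be unlike. Of 20 tubulins and microtubule-binding genes 5 rose and 0 fell, the tubulins TUBB (1.11) and TUBB2A (1.63), the plus-end protein MAPRE1 (1.53), MAP1B (1.58) and TPPP3 (2.43), and that count was 1 without either G1/S library or hESC S and 2 without endoderm S. TPPP3 rests on few reads in hESCs, with values of 6.05 (G1), 4.16 (G1/S) and 7.09 (S), where 3 reads would be 2.27, 3.12 and 1.77. TUBB2A, a beta-tubulin, passed in 5 of 6 leave-one-out fits. TUBB had hESC values of 710, 269 and 469 and endoderm values of 1275, 436 and 1631, lowest at G1/S in both types.

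Of 32 genes of actin turnover, 4 rose and 0 fell, against 6.9% and 7.6% of all regions. The rises were upstream DSTN, the actin-sequestering thymosins TMSB4X (2.02) and TMSB10 (0.93), and ARPC2 (1.45), a subunit of the Arp2/3 complex. The count of rises was 1 when a G1/S or an S library was left out and 6 without either G1 library, and the median difference was 0.30. CFL1 (cofilin, the relative of DSTN) had hESC values of 1402, 2128 and 1622 and endoderm values of 1877, 2499 and 2891 (0.50 ± 0.22, limma adjusted p = 0.164), a range much narrower than that of upstream DSTN. In S against G1, 2 of the 32 were at least 2-fold lower in hESCs and higher in endoderm, against 1.69% of all regions. Upstream DSTN is 1 of them by the choice of genes. The other is the region named ACTG1 (33577 and 11845 in hESC G1 and S, 20519 and 50458 in endoderm), which was named after its values were seen. The region named ACTG1 lies on chromosome 7, while RefSeq has ACTG1 on chromosome 17, so its name is uncertain. It lies close to the region named ACTB, on the same strand, and RefSeq has ACTB on chromosome 7. The region named ACTB had far lower values, 18.2 and 4.73 in hESC G1 and S and 8.98 and 15.4 in endoderm. Whether the reads of the region named ACTG1 are those of ACTB was not tested, so they are not evidence on ACTG1.

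Of 34 genes of cell junctions, MAGI1 included, 5 rose and 6 fell (median 0.02), against 6.9% and 7.6% of all regions. The rises were the tight junction scaffold TJP1 (1.55), the junction protein CGN (1.33), the desmosomal plaque protein DSP (2.10), the nectin PVRL2 (0.93) and the gap junction protein GJA1 (1.83). The falls were those of TJP3 (-2.31), the claudins CLDN3 (-1.11) and CLDN7 (-1.42), the polarity protein PARD6A (-1.05), the plakophilin PKP4 (-3.44) and the nectin PVRL1 (-1.53). DSP kept its call in 6 of 6 fits with a library left out and CLDN3 and PARD6A in 0 of 6, and CGN, TJP1 and PVRL2 in 2 or fewer. Counts of rises and falls were 1 and 1 without hESC G1/S, 1 and 2 without endoderm G1/S, 2 and 3 without hESC S, 2 and 4 without endoderm S, 8 and 4 without hESC G1 and 7 and 4 without endoderm G1. In S against G1, 3 junction genes were at least 2-fold lower in hESCs and higher in endoderm, against 1.69% of all regions: upstream MAGI1, CLDN5 and CLDN6. MAGI1 counts by the choice of genes and through its upstream region alone. Its downstream region had S minus G1 differences of 0.25 in hESCs and -0.75 in endoderm. The claudins were named after their values were seen. CLDN5 rests on few reads, with hESC values of 14.4 (G1) and 4.13 (S) and endoderm values of 3.45 and 8.56. In those endoderm libraries 1 read is worth 0.690 and 1.71. The claudin CLDN6 had hESC values of 5316 (G1), 7016 (G1/S) and 2405 (S) and endoderm values of 3355, 12213 and 11473, and the same libraries were low as for EMP3. PKP2, also named after its values were seen, went the other way on few reads. It had hESC values of 3.78 (G1) and 13.0 (S) and endoderm values of 16.6 and 3.42, where 3 reads would be 5.13 in endoderm S. Among the 14657 regions kept, 429 went the way of PKP2 at least 2-fold in both types, and 247 the way of upstream MAGI1. Of 4 measured genes of the EMP and PMP22 family EMP2 rose (1.35 ± 0.36, limma adjusted p = 0.0475), a call kept in 0 of 6 fits with a library left out. EMP2 had hESC values of 39.3, 57.3 and 52.6 and endoderm values of 168, 111 and 108, with the 3 endoderm libraries above the 3 hESC libraries.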

How the data were processed

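Libraries of RNA 3' ends were made from H9 cells in 2 states and 3 phases, 6 libraries in all, with between 2502792 and 6203079 reads in the deposited regions. The deposited signal values are linear, with 1 value per region and library. The authors' tools and builds, per the submitters' processing notes, include CASAVA 1.5, Bowtie 0.12.7 and DESeq 1.5.24 with builds hg18 and NCBI36; their roles are not stated. Libraries were primed with oligo dT after heat shearing of mRNA, per the labels' protocols. At a tolerance of 1e-06, 100% of values in each library were a whole number of reads times 1 constant, and these recovered reads served counting intervals, edgeR 4.0.16 and DESeq2 1.42.0.

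Regions were kept where log2(signal + 1) was at least 1 in at least 3 libraries (14657 kept, 29 removed, all 6 regions of the members kept). limma 3.58.1 in R 4.3.3 was fitted with cell type and phase and an intensity trend, on 2 residual degrees of freedom (5.46 added by moderation). Regions passed at a Benjamini-Hochberg adjusted p under 0.05; p-values reflect only the spread among these libraries. edgeR called 1990 regions and limma 2125. The fit was tested on simulated data. S against G1 within a type has 1 library a side and no test. Counting intervals are exact at 95%. The members and lists were chosen with earlier results of these data known. Named are all member regions, list genes past the threshold, close relatives, and the 3 most correlated regions of each member's strongest region. A list gene with several regions is represented by the one with the highest mean. GC content was found for 95.3% of named regions kept. Alternatives were another pseudocount, filter, scaling, model, test or set of libraries. After the data had been seen, a GC correction and a fit without both G1/S libraries were added. A replicate block was not fitted, as each type and phase has 1 library.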

Additional observations from a re-analysis of the deposited data

Results flagged for a closer look

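In 5 of the 6 regions S minus G1 went opposite ways in hESCs and endoderm, with both counting intervals excluding no change. This difference was not tested, since each type and phase has 1 library, and the genes were chosen on it. On the log2(signal + 1) scale, endoderm minus hESC, it was 4.34 for upstream DSTN, 4.29 for upstream MAGI1, 3.89 for EMP3, 3.83 for TBCA and -1.81 for downstream DSTN. The downstream DSTN region alone has a negative value among these 5.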

How the results depend on the processing

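Of the S minus G1 and G1/S minus G1 differences of the 6 regions, none changed sign with another pseudocount (0.5 or 4), with scaling by total reads or with quantile normalisation. The number of the 6 regions at least 2-fold lower in hESC S and higher in endoderm S was 3 under each of these. The GC correction used the end of the transcript, so it bears on EMP3 and the downstream regions, whose S minus G1 differences kept their sign, and not on the 3 regions near gene starts. The call of upstream DSTN in endoderm against hESCs was lost with a pseudocount of 4 (3.35), a stricter filter (3.42, on 8152 regions), quantile normalisation (3.45), no intensity trend (3.42), edgeR (3.12), DESeq2 (3.15) and without both G1/S libraries (4.59), and ran from 1.76 to 4.59 with a library left out. TBCA passed with DESeq2 (1.90) and ran from 0.95 to 2.87 with a library left out, and upstream MAGI1 ran from 0.24 to 2.38. EMP3 ran from -0.73 to 1.21 and downstream MAGI1 from -0.079 to 0.42, and both changed sign (EMP3 at -0.73 without either S library, downstream MAGI1 at -0.079 without either G1 library). The cause was not tested. Over all regions the calls number 1408 with the stricter filter and 415 without both G1/S libraries, and 419 to 2344 with a library left out. MAGI1 rests on as few as 18 reads in a library, which limits its downstream values. The phase term pairs the types by phase; without it 1825 regions passed, and upstream DSTN again did as the single one of the 6 (limma adjusted p = 0.0296). No paired analysis was possible by replicate number, because each type and phase has 1 library.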

Other observations

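Between the 2 regions of MAGI1 lie 4 regions without a gene name, all on the strand of the gene. Each had its 3 endoderm values at or below 15.0, and 3 of the 4 were highest in hESC G1. The one at chr3:65945498-65945664 had hESC values of 77.9 at G1, 1.04 at G1/S and 59.7 at S (103, 1 and 101 reads) and endoderm values of 1.38, 1.66 and 0 (2, 1 and 0 reads), where 3 reads would be 5.13 in endoderm S. None passed the test of endoderm against hESCs, with log2 differences between -3.53 and -1.01 and limma adjusted p between 0.0663 and 0.245. In DSTN, 1 unnamed region on the same strand lies between the 2 named ones, at chr20:17520572-17520696. It had hESC values of 9.08, 5.21 and 1.18 and endoderm values of 22.8, 4.99 and 35.9, from 2 to 33 reads, the same order of libraries as the upstream DSTN region within each type.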
